A study of Mus musculus with 4 samples.

Results

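The small RNA tables of mouse plasma vesicles listed 35 PIWI-interacting RNA (piRNA) entries among 1146 RNA features in all. They were taken by name, as every row whose name starts with mmu_piR. Such small extracellular vesicles are bounded by a membrane, are shed by cells and carry RNA. Here they were collected by differential centrifugation of plasma from wild-type mice on a normal diet. Plasma was taken 12 h after surgery, which was either sham (2 libraries) or induced myocardial infarction (MI, 2 libraries). The labels do not say how old the mice were or whether each library came from 1 animal or a pool. A p-value here thus measures the spread among 4 libraries and no more, and that spread may be technical. The title of the series concerns miRNAs that heart muscle sends out in such vesicles, and piRNAs were listed beside them in the same tables. Each captured RNA molecule carried a unique molecular identifier (UMI), a random tag added before amplification, so UMIs count molecules and reads count their amplified copies.

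piRNAs are small RNAs that PIWI-family Argonaute proteins carry. In the mouse they are best known from the germ line, above all the testis, where they guide silencing of transposons and are made without the Dicer enzyme that makes miRNAs. Catalogues of piRNAs were largely built by cloning small RNAs of germ cells, and some catalogued sequences also match pieces of abundant RNAs such as tRNA and ribosomal RNA. Whether the entries listed here do so was not tested, because the tables name each entry by a catalogue number and a genome position and hold no sequence.

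The 35 entries belonged to 26 catalogue numbers. Of these, 20 numbers had 1 entry and 6 numbers had several, which together made 15 entries at different positions. Positions are given below as they stand in the names, and the sources used here do not name their genome build, so no gene annotation was read from them. Entries lay on 12 chromosomes, 16 on the plus and 19 on the minus strand. The positions span 21 to 32 nt, with 27 entries of 26 to 32 nt and 8 of 21 to 23 nt. No entry of an intermediate length was listed.

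The lowest count in any table was 10 UMIs, and an entry missing from a library was read as having 0 to 9. The libraries held 11872840 to 24626952 total reads and 136316 to 377951 UMIs in the miRNA and piRNA table. Sham replicate 1 listed 23 piRNA entries, sham replicate 2 listed 19, MI replicate 1 listed 18 and MI replicate 2 listed 23. In all, 11 entries were listed in all 4 libraries, 4 in exactly 3, 7 in exactly 2 and 13 in 1 library. No entry was listed in both libraries of 1 group and in neither of the other. By replicate number, 3 entries stood in both replicate 2 libraries alone, and 4 in both replicate 1 libraries alone. The headers of both replicate 2 read sets carry the word plus, which the sources used here do not explain.

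**Figure D1:**
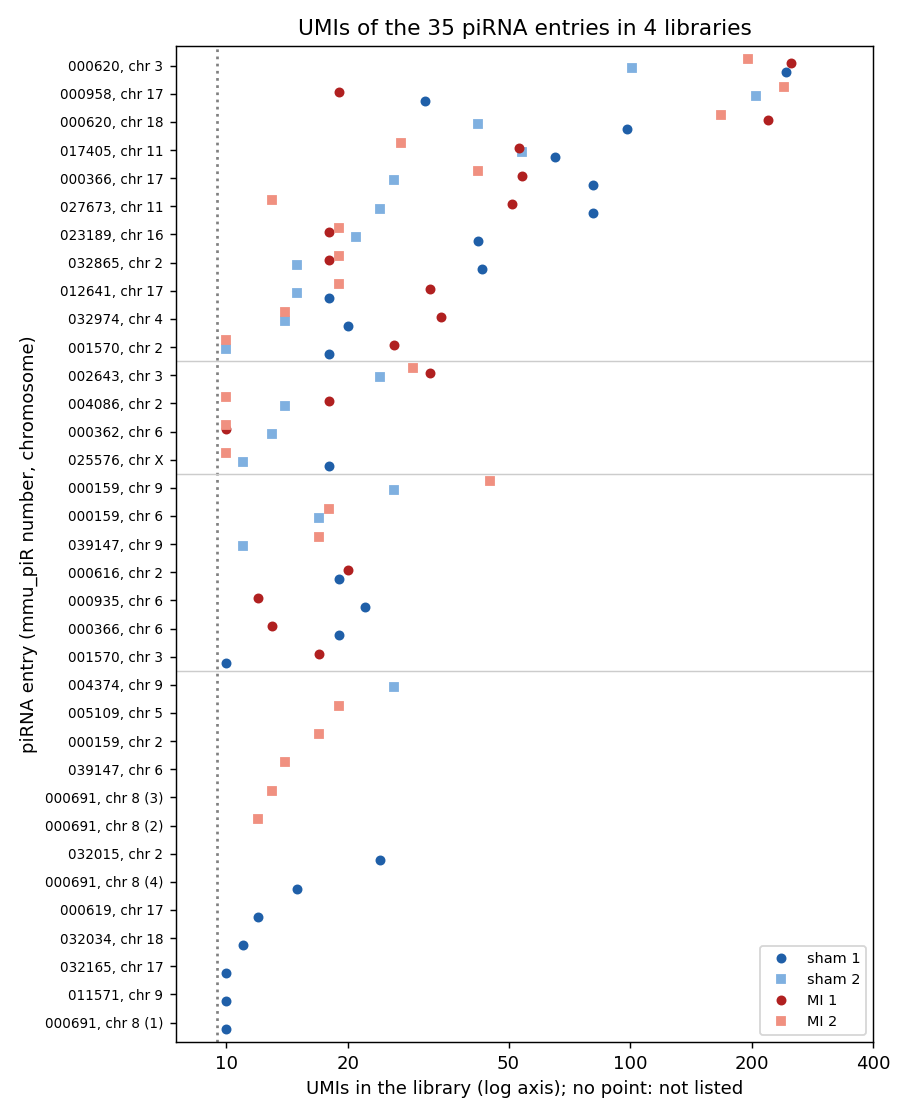
UMIs of each of the 35 piRNA entries (rows, by catalogue number and chromosome) on a log axis, with 1 point per library that listed it and a dotted line at the listing limit. Grey lines separate entries listed in 1, 2, 3 and 4 libraries; the 13 entries at the bottom stand in 1 library each, with 10 to 26 UMIs.

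Markers fixed for the check of the sample were those of blood and of the studied organ. The 4 red cell miRNAs summed to 348241 and 317242 UMIs per 1e6 miRNA and piRNA UMIs (CPM) in sham and to 376836 and 380117 CPM after MI. Those fixed for heart muscle, miR-208a-3p and miR-133a-3p, summed to 669 and 571 CPM in sham and to 4144 and 4827 CPM after MI. Only the sum was taken, so the part of each is not given. miR-122-5p of hepatocytes had 34875 and 35048 CPM in sham and 11207 and 11936 CPM after MI, and miR-223-3p of myeloid cells had 14028 and 12637 CPM in sham and 8014 and 10674 CPM after MI. These 4 sets did not overlap between the groups, while miR-126a-3p of endothelium did, with 12159 to 15816 CPM over the 4 libraries. Of 17 germ cell miRNAs, 2 were listed, both in sham libraries alone. The listed values of miR-463-3p and miR-881-3p came to 68.8 CPM in sham replicate 1 and 80.7 CPM in sham replicate 2, with 11 to 15 UMIs where listed. In sham replicate 2 they were not both listed. Up to 9 UMIs of each would go unlisted, or 40.9 CPM in MI replicate 1 and 66.0 CPM in MI replicate 2. A loss after MI thus cannot be told from the listing limit. The other germ cell miRNAs were unlisted in every library.

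piRNAs were a trace class. They took 0.0654% of total reads in sham replicate 1 (95% Wilson interval 0.0644 to 0.0664%) and 0.0853% in sham replicate 2 (0.0837 to 0.0869%). In MI replicate 1 the share was 0.0652% (0.0639 to 0.0665%), and in MI replicate 2 it was 0.0974% (0.0956 to 0.0992%). The intervals leave out the spread between libraries and treat each read as a separate molecule. Listed piRNA entries had 8.28 to 12.0 reads per UMI, so the intervals are too narrow even for counting error. The groups overlapped, and both replicate 2 libraries lay above both replicate 1 libraries. The mean was 0.0753 ± 0.0141% for sham against 0.0813 ± 0.0228% for MI (SD, n = 2 each; exact permutation test, two-sided, p = 1), and the sign of the difference turned without sham replicate 1 or without MI replicate 2. For scale, miRNA reads were 14.1 to 21.5% of total reads and tRNA reads 20.6 to 36.7%.

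Counted as molecules among the tabulated classes, the listed piRNA entries did not overlap between the groups. UMIs are known only for entries with at least 10 of them. Such entries held 68.8 and 68.7% of piRNA reads in sham and 78.8 and 77.7% in MI libraries. The part of this limit in the result was not tested. Listed entries made 0.0604 and 0.0896% of the UMIs of miRNAs, piRNAs, tRNAs and other RNAs in the sham libraries. In the MI libraries they made 0.103 and 0.162%. The means of 0.0750 ± 0.0207% and 0.132 ± 0.0417% differed 1.76-fold (exact permutation test, two-sided, p = 0.333, the smallest this design of 2 against 2 can give). Without the entries of mmu_piR_000620 the difference fell from 0.0573 to 0.0212 percentage points. It was 0.0278 without MI replicate 2, 0.0868 without MI replicate 1 and 0.0351 with reads in place of UMIs. tRNA, the largest class in the denominator, held 971133 and 471056 UMIs in the sham libraries and 487380 and 301642 UMIs in the MI libraries. Of total reads, which also include reads outside these classes, tRNA held 32.7 ± 5.59% for sham against 23.2 ± 3.69% for MI. The part of tRNA in the difference in piRNA share was not tested. Within miRNA and piRNA UMIs alone, the shares were 0.243 and 0.415% in sham and 0.408 and 0.720% in MI libraries, which overlapped (p = 0.667 by the same exact test).

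Few entries carried a large part of the listed UMIs. The 3 most abundant entries of a library held 45.9 to 61.6% of its listed piRNA UMIs. By mean CPM over the 4 libraries, both entries of mmu_piR_000620 and mmu_piR_000958 were highest, though not in each library. mmu_piR_000958 had only 31 UMIs in sham replicate 1 and 19 in MI replicate 1. Listed entries held 68.8 and 68.7% of the piRNA reads in the sham libraries and 78.8 and 77.7% in the MI libraries, and where the rest lie was not analysed here.

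After MI the clearest change was in mmu_piR_000620, the most abundant piRNA number. It has 2 listed entries of 30 nt, one on chromosome 3 from 5843782 to 5843811 (plus strand) and one on chromosome 18 from 54824345 to 54824374 (minus strand). The chromosome 18 entry was counted with 98 and 42 UMIs in the sham libraries and with 220 and 168 UMIs in the MI libraries. As levels these were 259 and 261 CPM in sham and 1001 and 1232 CPM in MI libraries. Both sham libraries were low and nearly equal, and both MI libraries were far above them.

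This entry rose 4.29-fold, from 260.0 ± 0.978 to 1117 ± 164 CPM (SD, n = 2 each). Its log2 fold change was 2.09 (SE 0.20, edgeR quasi-likelihood test, adjusted p = 0.0153 over all 286 miRNAs and piRNAs tested). It was the only piRNA entry of 19 tested that passed in either direction. Over all tested features, 1.75% were called higher and 1.4% lower. The call was lost when reads replaced UMIs (adjusted p = 0.0651) and without sham replicate 1, the deepest library (adjusted p = 0.320), where the log2 fold change was still 2.06. It was past the threshold in 14 of 16 alternatives, and its log2 fold change was 1.31 to 2.13 over all 16.

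The chromosome 3 entry of the same number moved less. It had 243 and 101 UMIs in the sham libraries and 250 and 196 UMIs in the MI libraries, or 643 and 627 CPM in sham and 1137 and 1438 CPM in MI libraries. The 2 groups did not overlap, but the entry did not pass the threshold (2.03-fold, log2 fold change 1.01, SE 0.18, edgeR adjusted p = 0.0855). It was past it in 3 of 16 alternatives, namely no low-count filter, only features listed in all 4 libraries, and the replicate block. With reads in place of UMIs its log2 fold change was 0.24. With both entries summed, mmu_piR_000620 had 902 and 888 CPM in sham and 2138 and 2670 CPM in MI libraries. The sum rose 2.69-fold (edgeR log2 fold change 1.42, SE 0.16, adjusted p = 0.0231). More vesicles of a source and more of this RNA per vesicle cannot be told apart in these bulk libraries. The red cell, heart muscle, hepatocyte and myeloid miRNAs above moved with the same libraries, and their part in this rise was not tested.

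The split between these 2 positions differed between the groups and was nearly constant within them. The chromosome 18 entry held 28.7% (95% exact interval 23.99 to 33.9%) of the UMIs of the number in sham replicate 1 and 29.4% (22.1 to 37.6%) in sham replicate 2. In MI replicate 1 it held 46.8% (42.2 to 51.4%) and in MI replicate 2 46.2% (40.9 to 51.4%). No interval of an MI library met one of a sham library. These intervals cover the counting of UMIs within a library and not the spread between libraries or animals. In other terms, chromosome 3 outnumbered chromosome 18 by a ratio of 2.48 and 2.40 in sham and of 1.14 and 1.17 in MI libraries (mean 2.44 ± 0.0529 against 1.15 ± 0.0214, exact permutation p = 0.333, two-sided, the smallest possible). A ratio within a library does not depend on its scaling. The sources used here do not say how the counting assigned reads to 2 positions that share a catalogue number. The split between them is thus uncertain, and so is the change of each position taken alone, given above. The effect of the assignment was not tested.

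**Figure D2:**
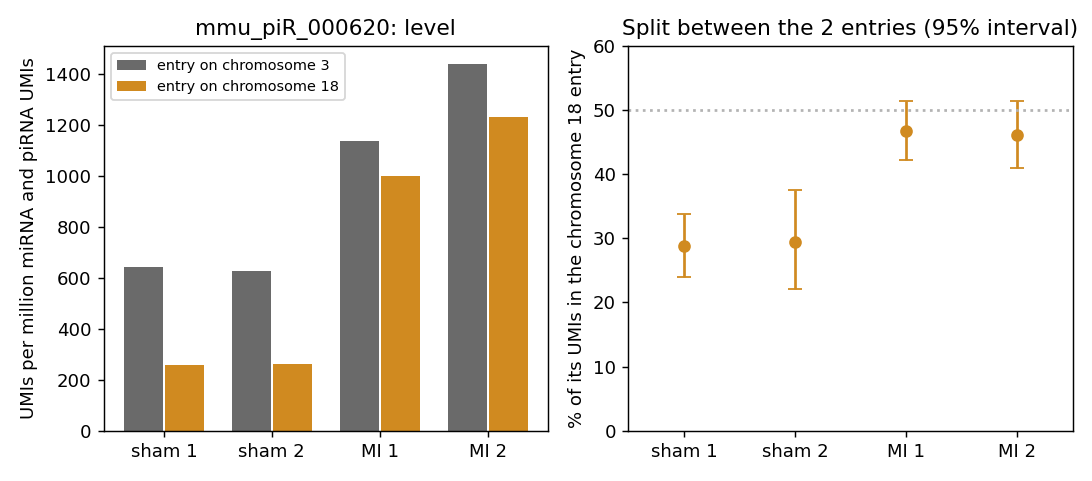
The left panel gives the level of both entries of mmu_piR_000620 in each library (UMIs per 1e6 miRNA and piRNA UMIs, bars from 0, 1 library per bar pair). The right panel gives the percent of its UMIs in the chromosome 18 entry with the 95% exact binomial interval and a dotted line at an equal split; it lay near 29% in both sham and near 46% in both MI libraries.

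Amplification of these entries differed with the group as well. The chromosome 3 entry had 13.4 and 10.9 reads per UMI in the sham libraries and 6.69 and 6.12 in the MI libraries. On chromosome 18 the values were 9.02 and 8.71 in sham and 7.22 and 7.06 in MI libraries. Counted as reads, the ratio of chromosome 3 to chromosome 18 was 3.68 and 3.00 in sham and 1.05 and 1.01 in MI libraries. Over all piRNA entries there were 12.0 and 11.4 reads per UMI in sham and 8.28 and 9.15 in MI libraries, while miRNAs had 13.6, 11.7, 11.2 and 11.8 in the same order. Of the 11 entries listed in all 4 libraries, 5 had fewer reads per UMI in both MI than in both sham libraries and none had more, beside 29.5% and 4.0% of all 200 miRNA and piRNA features listed in all 4.

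Other entries lie close to mmu_piR_000620 on chromosome 3. mmu_piR_002643, of 28 nt, starts 77 bases before it on the same strand, and 1 entry of mmu_piR_001570 starts 370 bases before it. mmu_piR_002643 was unlisted in sham replicate 1 and had 24 UMIs in sham replicate 2, 32 in MI replicate 1 and 29 in MI replicate 2. The listed levels were 149, 146 and 213 CPM, so sham replicate 2 lay among the MI libraries, while sham replicate 1 was at most 23.8 CPM. The entry did not pass (log2 fold change 1.29, SE 1.97, edgeR adjusted p = 0.936), and it was called higher without sham replicate 2 (adjusted p = 0.0223), where both MI libraries are set against a single unlisted one. The chromosome 3 entry of mmu_piR_001570 had 10 UMIs in sham replicate 1, 17 in MI replicate 1 and was unlisted in both replicate 2 libraries.

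The other entry of mmu_piR_001570, on chromosome 2 from 5296574 to 5296603 (minus strand), was listed everywhere, with 18 and 10 UMIs in sham and 26 and 10 UMIs in MI libraries. It overlaps mmu_piR_000616 on the same strand by 29 nt, with 5′ ends 1 base apart. mmu_piR_000616 was listed in the replicate 1 libraries alone, with 19 UMIs in sham and 20 UMIs in MI. As levels, mmu_piR_001570 on chromosome 2 had 47.6 and 62.1 CPM in sham and 118 and 73.4 CPM after MI. These groups did not overlap, but the nearest values, of both replicate 2 libraries, were the same 10 UMIs, the lowest count listed. The gap between them came from library size alone. The entry did not pass (edgeR adjusted p = 0.899).

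mmu_piR_000958 differed between same-group replicates by far more than between surgeries. This entry of 27 nt lies on chromosome 17 from 39456228 to 39456254 (plus strand). It had 31 UMIs in sham replicate 1 and 205 in sham replicate 2, and 19 UMIs in MI replicate 1 and 241 in MI replicate 2. The levels were 82.0 and 1272 CPM in sham and 86.4 and 1768 CPM in MI libraries. Replicate 2 was thus 15.5-fold above replicate 1 in sham and 20.5-fold above it in MI.

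No such gap was seen in most other small RNAs. Of the 200 miRNA and piRNA features listed in all 4 libraries, 1.0% were at least 4-fold higher in the replicate 2 library of both groups, namely mmu_piR_000958 and miR-1956. The latter, chosen after its values were seen, had 29.1 and 292 CPM in sham and 50.03 and 565 CPM in MI libraries. None of the 200 was 4-fold lower in both. Among 104 tRNA features listed in all 4 libraries 0 were 4-fold higher in both, and among 114 other RNA features 1 was. The comparison of surgeries gave mmu_piR_000958 a log2 fold change of 0.39 with a wide error (SE 1.70, edgeR adjusted p = 0.965). It was called lower after MI when MI replicate 2 was left out (log2 fold change -2.85, adjusted p = 1.22e-05). The entry alone made 3.37 and 30.6% of listed piRNA UMIs in the sham libraries and 2.12 and 24.5% in the MI libraries.

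**Figure D3:**
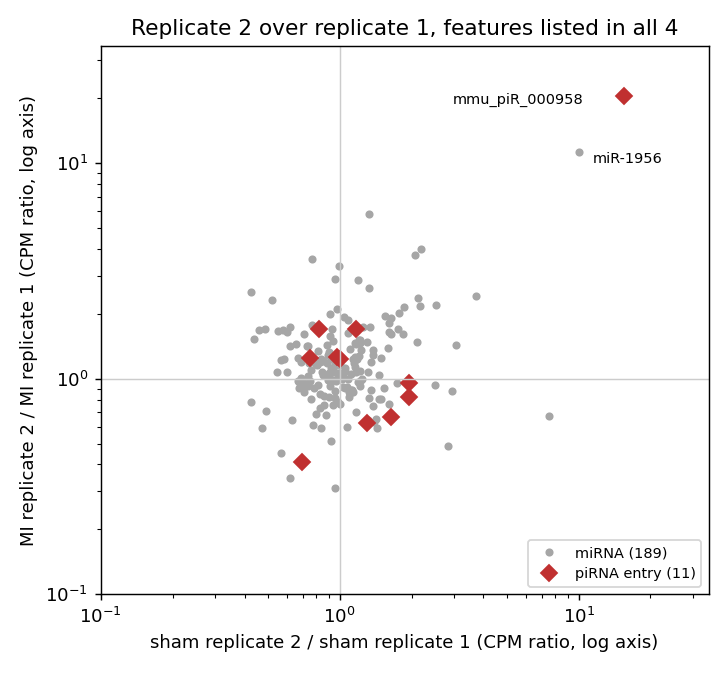
Ratio of the CPM of replicate 2 to replicate 1 in sham (x, log axis) and in MI libraries (y, log axis) for the 189 miRNAs (grey) and 11 piRNA entries (red) listed in all 4 libraries. mmu_piR_000958 lies at 15.5 and 20.5 and miR-1956 at 10.02 and 11.3, apart from the other features.

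A second pair of overlapping entries showed the same split. mmu_piR_000159, of 28 nt, was listed at 3 positions and mmu_piR_039147, of 21 nt, at 2, and every one of these 5 entries stood in replicate 2 libraries alone. On chromosome 9, mmu_piR_000159 (118523651 to 118523678, minus strand) had 26 UMIs in sham replicate 2 and 45 in MI replicate 2. With at most 9 UMIs in each replicate 1 library, it was at least 6.78-fold higher in replicate 2 of the sham group and at least 8.06-fold higher in replicate 2 of the MI group. On chromosome 6 (87962871 to 87962898, minus strand) it had 17 and 18 UMIs in the same libraries, and its chromosome 2 position was listed in MI replicate 2 alone, with 17. Depth fixed some excess for any entry listed in replicate 2 alone. The lowest listed count, 10 UMIs, is 62.1 CPM in sham replicate 2 and 73.4 CPM in MI replicate 2. In the replicate 1 libraries, 9 UMIs are 23.8 CPM in sham and 40.9 CPM in MI.

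mmu_piR_039147 overlaps mmu_piR_000159 by 19 nt both on chromosome 6 and on chromosome 9, with its 5′ end 9 bases inside the longer entry at each. It had 11 and 17 UMIs on chromosome 9 in sham replicate 2 and MI replicate 2, and 14 UMIs on chromosome 6 in MI replicate 2. The 2 names thus overlap at the same offset in 2 places and are not independent. The replicate 2 libraries that listed them held fewer miRNA and piRNA UMIs than the replicate 1 libraries of their group (161120 against 377951 in sham, 136316 against 219857 in MI).

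Entries listed in the replicate 1 libraries alone were close to the limit. They were the chromosome 6 entry of mmu_piR_000366 (19 UMIs in sham and 13 in MI), mmu_piR_000935 (22 and 12), mmu_piR_000616 and the chromosome 3 entry of mmu_piR_001570. In terms of level, up to 9 UMIs in the shallower replicate 2 libraries would allow 55.9 CPM in sham and 66.0 CPM in MI, against listed levels of 26.5 to 91.0 CPM. Against that allowance, mmu_piR_000616 was at least 1.38-fold higher in replicate 1 of the MI group, mmu_piR_001570 on chromosome 3 at least 1.17-fold higher there, and mmu_piR_000935 at least 1.04-fold higher in replicate 1 of the sham group. In the other group of each of these, and in both groups for mmu_piR_000366 on chromosome 6, a difference between replicates was not detectable at this depth.

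Outside mmu_piR_000620, no entry listed in all 4 libraries passed the test. Of the 11, 6 were higher in both MI than in both sham libraries and 0 were lower in both, beside 23% and 27.0% of the 200 features. Besides both entries of mmu_piR_000620, which share a number, these were mmu_piR_000366 on chromosome 17, mmu_piR_001570 on chromosome 2, mmu_piR_012641 and mmu_piR_032974. In mmu_piR_001570 on chromosome 2, sham replicate 2 and MI replicate 2 both had 10 UMIs, and in mmu_piR_032974 both had 14. The groups of these entries were thus kept apart by library size alone. mmu_piR_000366 on chromosome 17, of 27 nt, had 81 and 26 UMIs in sham and 54 and 42 UMIs in MI libraries. The levels were 214 and 161 CPM in sham and 246 and 308 CPM after MI (log2 fold change 0.54, SE 0.34, edgeR adjusted p = 0.623), and the direction turned with scaling to piRNA entries alone (-0.24). mmu_piR_012641 had 47.6 and 93.1 CPM in sham and 146 and 139 CPM after MI (edgeR adjusted p = 0.725). mmu_piR_032974 had 52.9 and 86.9 CPM in sham and 155 and 102.7 CPM after MI (edgeR adjusted p = 0.792).

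Over the 19 entries that passed the filter on low counts, the median log2 fold change was 0.57 and 14 were above 0, beside a median of 0.01 and 50.7% above 0 over all 286 tested features. Every tested entry was listed in at least 1 library of each group, and none of the 13 entries listed in 1 library was tested, so these figures describe the tested entries and not the 35. Scaled to piRNA entries alone, which moved the median of all features to -0.77, the median of the piRNA entries was -0.19 and 8 were above 0. At an unadjusted p of 0.05, 2 entries were higher and 0 lower, beside 5.59% and 8.04% of all tested features. Both were the entries of mmu_piR_000620.

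**Figure D4:**
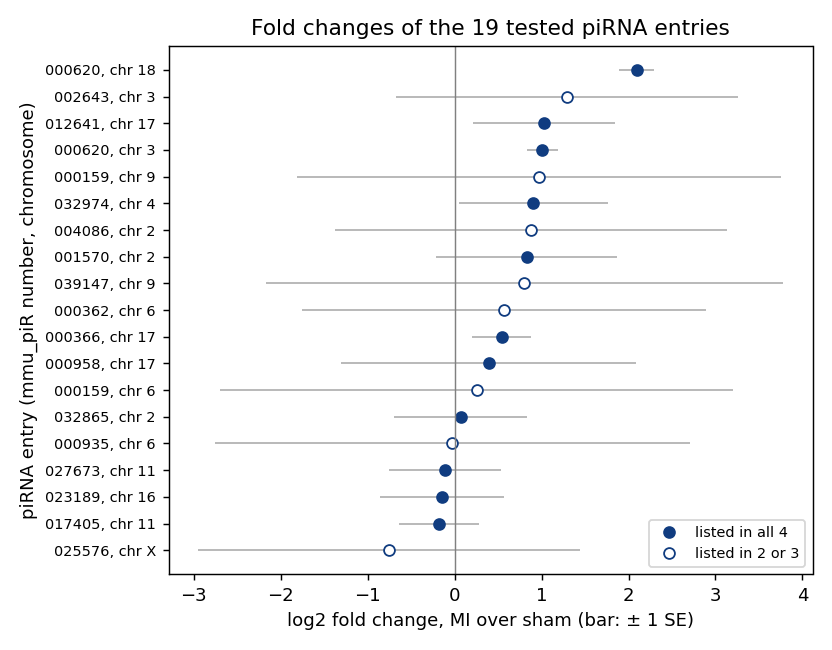
Log2 fold change of MI over sham libraries with 1 SE for the 19 tested piRNA entries, from the edgeR fit over the whole miRNA and piRNA table. Filled points were listed in all 4 libraries and open points in 2 or 3; the chromosome 18 entry of mmu_piR_000620 at 2.09 was past the threshold.

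The entries of 21 to 23 nt are too short for typical germ line piRNAs and are given together. Of these 8, 4 were listed in all 4 libraries: mmu_piR_017405, mmu_piR_023189, mmu_piR_027673 and mmu_piR_032865. None passed the test. mmu_piR_017405, on chromosome 11 from 65550994 to 65551015 (minus strand), had 172 and 335 CPM in sham and 241 and 198 CPM after MI (log2 fold change -0.18, SE 0.46, edgeR adjusted p = 0.949). mmu_piR_027673, also on chromosome 11, had 214 and 149 CPM in sham and 232 and 95.4 CPM after MI (edgeR adjusted p = 0.965). Their groups overlapped.

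mmu_piR_023189 had 111 and 130 CPM in sham and 81.9 and 139 CPM after MI (log2 fold change -0.15, edgeR adjusted p = 0.965). For mmu_piR_032865 the levels were 114 and 93.1 CPM and 81.9 and 139 CPM in the same order (edgeR adjusted p = 0.975). mmu_piR_025576, the only entry on chromosome X, had 47.6 and 68.3 CPM in sham, was unlisted in MI replicate 1 and had 73.4 CPM in MI replicate 2 (edgeR adjusted p = 0.958). The direction of all 5 of these entries turned when single libraries were left out.

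As a part of all listed piRNA UMIs, the entries of 21 to 23 nt took 29.7 and 20.3% in the sham libraries and 15.6 and 12.1% in the MI libraries (exact permutation p = 0.333, two-sided, the smallest possible). The groups did not overlap, and the difference of -11.1 percentage points was -13.2 when the UMIs of mmu_piR_000620 and mmu_piR_000958 were left out of the total. Without sham replicate 1 it was -6.47 percentage points. The level of these entries did not separate the groups, with 722 and 844 CPM in sham and 637 and 873 CPM after MI (exact permutation p = 1, two-sided). Entries of 26 to 32 nt had 1712 and 3308 CPM in sham and 3443 and 6331 CPM after MI, so the lower share of the short class went with a higher level of the long one. This split by length was chosen after the values were seen.

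Copies per molecule also varied with length. Over the 4 libraries together, the entries of 21 to 23 nt had 2.78 to 13.2 reads per UMI with a median of 7.11, and those of 26 to 32 nt had 4.63 to 20.6 with a median of 11.1. The median over miRNA features was 11.5. mmu_piR_023189 was lowest, with 3.76 and 2.43 reads per UMI in sham and 2.11 and 1.63 in MI libraries. mmu_piR_032865 had 7.91 and 4.80 reads per UMI in sham and 3.44 and 1.74 in MI libraries. Of miRNA features, 11.1% had fewer than 5 reads per UMI over the 4 libraries.

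**Figure D5:**
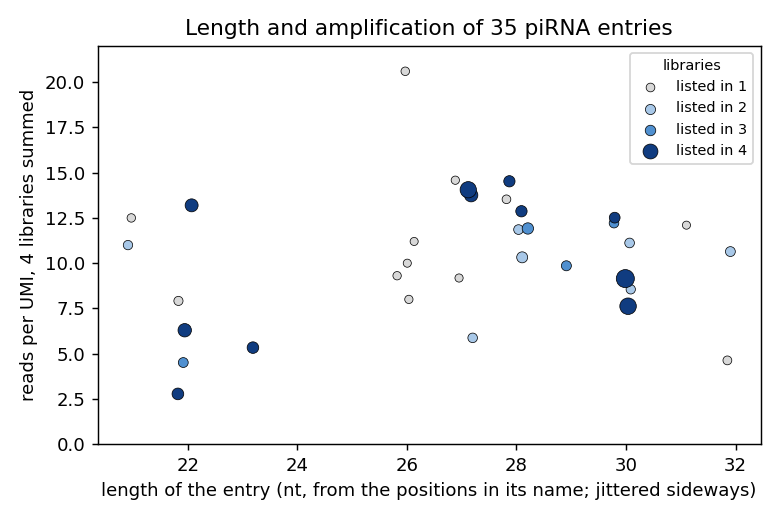
Length of each of the 35 piRNA entries (nt, shifted sideways at random to separate points) and its reads per UMI over 4 libraries, with larger points for more UMIs and darker ones for more libraries. Entries of 21 to 23 nt have a median of 7.11 reads per UMI and those of 26 to 32 nt one of 11.1.

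The remaining entries were seen in single libraries or close to the limit. mmu_piR_000691, of 26 nt, had 4 entries on the minus strand of chromosome 8, spread from 126474048 to 126499528. Of these, 2 were listed in sham replicate 1 alone (10 and 15 UMIs) and the other 2 in MI replicate 2 alone (12 and 13 UMIs), so that no position of this number was listed in 2 libraries. Of the 7 entries listed in sham replicate 1 alone, with 10 to 24 UMIs, 1 exceeded the level that 9 UMIs would allow in sham replicate 2. All 5 entries listed in MI replicate 2 alone exceeded that level for MI replicate 1, by at least 2.15-fold to at least 3.40-fold. Depth fixed that all 5 would exceed it. The lowest listed count, 10 UMIs, is 73.4 CPM in MI replicate 2, while 9 UMIs in MI replicate 1 are 40.9 CPM. In sham replicate 1, 10 UMIs are 26.5 CPM, below the 55.9 CPM of 9 UMIs in sham replicate 2. mmu_piR_004374 was listed in sham replicate 2 alone, with 26 UMIs. mmu_piR_004086 and mmu_piR_000362, both unlisted in sham replicate 1, had 73.4 to 86.9 CPM and 45.5 to 80.7 CPM where listed, with no separation of the groups.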

How the data were processed

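The deposited tables hold raw counts per feature, both UMI counts and read counts, and reads per read class, per the file headers. Libraries were made with the QIAseq miRNA kit, per the labels' protocols. The sources used here name neither the aligner nor the build behind the piRNA positions. No listed value was below 10 UMIs, and unlisted features were entered as 0. In all, 4 divider lines without values were left out. The piRNA entries and lists were chosen with earlier results of these data known.

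UMI counts of the whole table of 530 miRNAs and 35 piRNA entries were fitted together in edgeR 4.0.16 (R 4.3.3) with TMM factors, filterByExpr (minimum count 10, minimum total 15), the quasi-likelihood F-test and Benjamini-Hochberg adjustment over all 286 features tested, at 0.05. Errors (SE) were derived from the fold change and its F statistic. CPM are UMIs per 1e6 miRNA and piRNA UMIs. Shares were compared with exact permutation tests (scipy 1.17.1). Alternatives were read counts, other scalings, DESeq2 1.42.0, other filters, other values for unlisted features, summed entries, a replicate block and leaving out each library. Simulated data of 565 features (5 sets, 200 changed) used a dispersion of 0.079, that of features listed in all 4 libraries. On these, the comparison called 44.0% of tested 4-fold, 7.52% of 2-fold and 0.356% of unchanged features. The fit itself had a common dispersion of 0.451, so these rates may not hold for it. Replicates differed by more than sampling noise (chi-square per degree of freedom 17.1 for sham and 11.8 for MI), and no library was a copy of another. Entries named in the text were those past the threshold, the 10 of highest mean CPM, up to 3 tested per direction of smallest p, and entries sharing a number; the split of mmu_piR_000620, the length classes and the other entries named were chosen after their values were seen.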

Additional observations from a re-analysis of the deposited data

How the results depend on the processing

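Of the 19 tested piRNA entries, 1 was higher and 0 lower. The number higher was 0 with read counts, and 2 with no low-count filter, with features listed in all 4 libraries alone and with the replicate block. Leaving out 1 library in turn gave 0 to 2 higher and 0 to 1 lower. The log2 fold change of mmu_piR_000620 on chromosome 18 was 2.02 to 2.08 when leaving out 1 library, and that of its chromosome 3 entry 0.92 to 1.01. Those of mmu_piR_017405, mmu_piR_023189 and mmu_piR_025576 ranged from -0.62 to 0.33, from -0.48 to 0.043 and from -6.85 to 0.18. For mmu_piR_000366 on chromosome 17 it was -0.24 with scaling to piRNA entries alone. The cause was not tested. The difference in the share of total reads ranged from -0.0101 to 0.0221 percentage points when leaving out 1 library. The differences in the share of tabulated UMIs, in reads per UMI, in the ratio of the mmu_piR_000620 entries and in the share of short entries kept their direction in all alternatives run for them.

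The deviations of same-numbered libraries had a correlation of 0.356 over 200 features. These include mmu_piR_000958 and miR-1956, the latter with ratios of replicate 2 to replicate 1 of 10.02 and 11.3. Over 11 piRNA entries the correlation was 0.795, but these include mmu_piR_000958, with ratios of replicate 2 to replicate 1 of 15.5 and 20.5. The other piRNA entries had ratios of 0.695 to 1.95 in sham and 0.411 to 1.70 in MI libraries. Some of them moved in opposite directions in the 2 groups and others together. The correlations without mmu_piR_000958 and miR-1956 were not tested, so whether the rest deviated together is not known. Both replicate 2 read sets carry the word plus. The sources used here do not say that this marks a shared batch and there are 2 pairs, so the fit without the block was kept, and whether the numbers pair the libraries is not settled. With the replicate block the adjusted p was 0.00215 for the chromosome 18 entry of mmu_piR_000620 and 0.0398 for its chromosome 3 entry. The limit of 10 UMIs and 2 libraries per group restrict what can be seen in entries near that limit.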
